A study of Mus musculus with 2 samples.

Results

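The 44 genes for collagen alpha chains were described across the cell types of injured and uninjured mouse tendon. They were taken as every gene whose symbol consists of Col, a type number, a and a chain number, which 44 of the 32285 listed genes met. By structural family they were 11 fibrillar chains, 9 basement membrane chains, 3 network-forming chains, 9 fibril-associated chains (FACIT), 4 transmembrane chains and 8 chains of type VI and other types. A chain was described by name where it reached 10 CPM (counts per 1000000 UMIs) in at least 1 class of 50 or more cells, which 42 chains did. Col9a1, a cartilage FACIT chain with 521 unique molecular identifiers (UMIs, counts of distinct captured mRNA molecules) in the injured and 12 in the uninjured library, and Col10a1, the hypertrophic cartilage chain with 69 and 4 UMIs, did not.

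Each of 2 droplet single-cell RNA libraries was 1 group, so no difference between them has a replicate. Both came from mice with a Hoxa11 wt/CreERT2 allele, which puts an inducible Cre under the Hoxa11 gene, a Cre-dependent transactivator at R26 wt/LSL-rtTA, and a TetO-Vegfd transgene that the transactivator drives, and both carry the label of a burn with tenotomy, the severing of a tendon. The injured library was from the tenotomised Achilles tendon region 7 days after surgery, and the uninjured library was from the opposite limb of burned mice. The mice were male and female, had surgery at 8 to 12 weeks of age and numbered 5 per group in the series' description. Whether animals were pooled in a library, and when the inducing drugs were given, was not found in the labels or the series' text. Control-genotype libraries were not analysed here, so every value below is from animals with the TetO-Vegfd genotype. Whether Vegfd was overexpressed in them was not tested. The uninjured limb shared the burn with the injured one.

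Collagens are trimers of alpha chains wound into a triple helix, built in the endoplasmic reticulum and in most cases assembled outside the cell. Fibrillar types I and III form the tensile fibres of tendon and scar, types V and XI start fibrils and limit their width, and FACIT types XII and XIV sit on the fibril surface. Type IV forms the sheet of basement membranes under endothelium, epithelium, muscle and Schwann cells, with types XV and XVIII between that sheet and the fibres, while type VI makes beaded filaments around cells.

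After filters on cells, the injured library held 9151 cells with a median of 17492 UMIs and the uninjured library 4700 cells with a median of 15771.5 UMIs. More than 10% mitochondrial UMIs removed 7.49% of barcodes in the injured and 26.4% in the uninjured library, and 19 barcode sequences occurred in both. Classes were named from marker genes and are "X-like" throughout: 2290 injured and 1268 uninjured cells were mesenchymal, 454 and 219 mural (pericyte and vascular smooth muscle), 1128 and 1637 vascular endothelial, 84 and 84 lymphatic endothelial, 100 and 170 Schwann, and 4367 and 562 immune. Satellite cells or myoblasts numbered 17 and 274, and the 306 keratinocytes were all in the injured library, although the tissue is labelled tendon. Cells with Xist and no Y-linked UMIs, and the reverse, occurred in both libraries but in different proportions. They numbered 3563 and 3481 in the injured library and 2404 and 1520 in the uninjured library. Levels are summed UMIs of a chain scaled to CPM of a class in 1 library, and 95% intervals (exact Poisson, binomial or ratio intervals) cover counting error only. A chain was called higher or lower when its level differed more than 2-fold on the log2(CPM + 5) scale with a mean of at least 10 CPM. No p-value is given, because each group is 1 library.

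Promoter sequences are shown for 2 sets of genes, fibrillar chains that were high in different mesenchymal clusters and paired type IV genes that lie head to head. Of the 44 chains, 35 matched a RefSeq window of 250 bases before a start site (GRCm38.p6, 38 windows). Windows from 3 fibrillar chains are shown, each ending 1 base before the start. Capitals mark 3 motifs, none overlapping another in these windows. The TATA box was searched as TATAAA. The CCAAT box was searched as CCAAT. The GC box was searched as GGGCGG. All were searched on both strands, so a capital run may be the reverse complement of those letters.
Col3a1, chr1:45311288-45311537, plus strand: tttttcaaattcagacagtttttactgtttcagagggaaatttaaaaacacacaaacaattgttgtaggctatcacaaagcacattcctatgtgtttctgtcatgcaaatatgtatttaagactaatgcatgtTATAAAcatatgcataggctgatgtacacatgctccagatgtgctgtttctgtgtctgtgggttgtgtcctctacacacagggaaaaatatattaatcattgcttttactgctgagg
Col5a1, chr2:27886175-27886424, plus strand: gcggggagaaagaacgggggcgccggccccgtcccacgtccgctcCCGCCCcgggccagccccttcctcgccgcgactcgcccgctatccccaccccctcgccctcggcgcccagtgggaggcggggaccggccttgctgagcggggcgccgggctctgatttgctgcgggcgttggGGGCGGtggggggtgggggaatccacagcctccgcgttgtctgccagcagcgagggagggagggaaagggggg
Col11a1, chr3:114030290-114030539, plus strand: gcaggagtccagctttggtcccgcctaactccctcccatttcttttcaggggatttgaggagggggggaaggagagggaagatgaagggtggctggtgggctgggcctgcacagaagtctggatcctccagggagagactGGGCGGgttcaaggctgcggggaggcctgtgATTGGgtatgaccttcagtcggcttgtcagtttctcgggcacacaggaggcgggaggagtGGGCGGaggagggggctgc
The Col3a1 window held a TATA box beginning 117 bases before the start, the Col5a1 window held GC boxes at 205 and 73 bases, and the Col11a1 window held GC boxes at 110 and 19 bases and a CCAAT box at 79 bases. A TATA box was found in 5 of 38 collagen windows (13.2%) and in 12.4% of 32851 windows of all genes. The CCAAT box was in 34.2% and 33.8%, and the GC box in 57.9% and 32.7%. A match is a string of letters, not a measured binding site.

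The 6 type IV genes lie in 3 divergent pairs. In the GENCODE M21 annotation of GRCm38 the 5′ ends of Col4a1 and Col4a2 on chromosome 8 overlap by 22 bases, Col4a6 and Col4a5 on chromosome X are separated by 1308 bases, and Col4a4 and Col4a3 by 71 bases. That last stretch is printed whole, since no base of it lies in either gene.
Between Col4a4 and Col4a3, chr1:82586850-82586920, minus strand (5′ to 3′ toward Col4a4): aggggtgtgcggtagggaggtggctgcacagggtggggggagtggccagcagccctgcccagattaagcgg

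Collagen mRNA was concentrated in the mesenchymal cells of both libraries. The 44 chains together made up 6.35% of mesenchymal UMIs in the injured and 4.92% in the uninjured library, or 3024 and 1064 UMIs per cell at median depths of 45469 and 19851.5 UMIs. Mesenchymal cells held 91.6% and 83.0% of all collagen UMIs of their libraries. Fibrillar chains accounted for 5.80% and 4.19% of mesenchymal UMIs, while basement membrane chains were 0.0452% and 0.171%, a lower share in the injured library.

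Other classes had a different makeup. In mural cells, collagens were 1.66% of UMIs in the injured and 0.681% in the uninjured library, with basement membrane chains at 0.435% and 0.203%. In vascular endothelium the total was 0.531% and 0.450%, mostly basement membrane chains at 0.449% and 0.418%. Vascular endothelium therefore held 53.9% and 56.3% of each library's basement membrane collagen UMIs. Immune cells, which should make almost no collagen, read 0.0753% and 0.0420%. That pooled level is used below as the background of free RNA in the droplets, although it differed between immune classes. In the injured library collagens were 2292 of 3762293 UMIs in dendritic cells and 2019 of 217051 in the 32 mast cells. Whether doublets added to it was not tested.

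**Figure D1:**
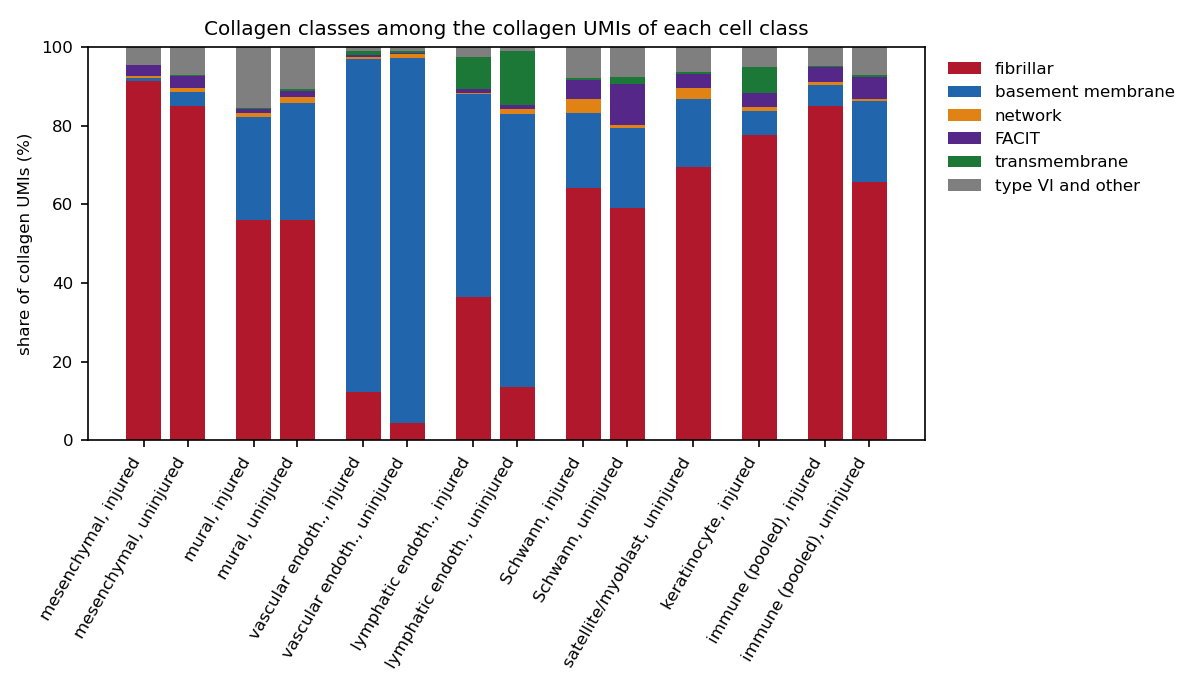
Share of the collagen UMIs (y axis, percent) that each collagen family took in each cell class, with 1 bar per library. Fibrillar chains were 91.3% and 85.1% of mesenchymal collagen UMIs in the injured and the uninjured library, and basement membrane chains were 84.6% and 92.9% of vascular endothelial ones.

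Over all cells of a library, where cell makeup and level per cell cannot be told apart, 10 of the 29 chains that passed the level filter were called higher in the injured library and 4 lower, against 4.52% and 6.17% of all genes tested. Of the higher chains 3 were below 10 CPM in the uninjured library, and of the lower ones 2 in the injured library. These passed the filter through the other library. Col1a1, the main type I chain, read 9299 CPM in the injured and 4263 CPM in the uninjured library. Col4a1, the main type IV chain, read 628 and 1307 CPM, and Col4a2 348 and 790 CPM. The Col4a1 call was lost with median-of-ratios scaling (log2 -0.98). When each cell was given the same weight in place of each UMI, 0 chains were called higher. Values within classes follow for that reason.

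The class with the highest level differed by family. Mesenchymal cells had the highest level for 18 of the 42 described chains in the injured library and 23 in the uninjured library, the fibrillar chains Col1a1, Col1a2, Col2a1, Col3a1, Col5a1, Col5a2, Col11a1 and Col11a2 among them in both. Schwann cells had the highest level for 6 and 7 chains, among them Col20a1 and Col28a1. Mural cells were highest for 7 and 3, vascular endothelium for 3 and 4, lymphatic endothelium for 2 and 2 (Col23a1 in both libraries), and keratinocytes for 5 in the injured library. In the uninjured library satellite cells had the highest level for Col19a1, Col25a1 and Col26a1. For some chains the intervals of the first 2 classes overlapped, so that their order was not resolved even for counting error. In the injured library these were Col4a1 (mural 2131 CPM, vascular endothelium 2116 CPM), Col4a4, Col4a5, Col19a1 and Col22a1 (lymphatic endothelium 5.27 CPM, mesenchymal 4.81 CPM). In the uninjured library they were Col6a4, Col7a1, Col9a2, Col17a1 and Col25a1 (satellite cells 14.1 CPM, mural cells 11.8 CPM).

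**Figure D2:**
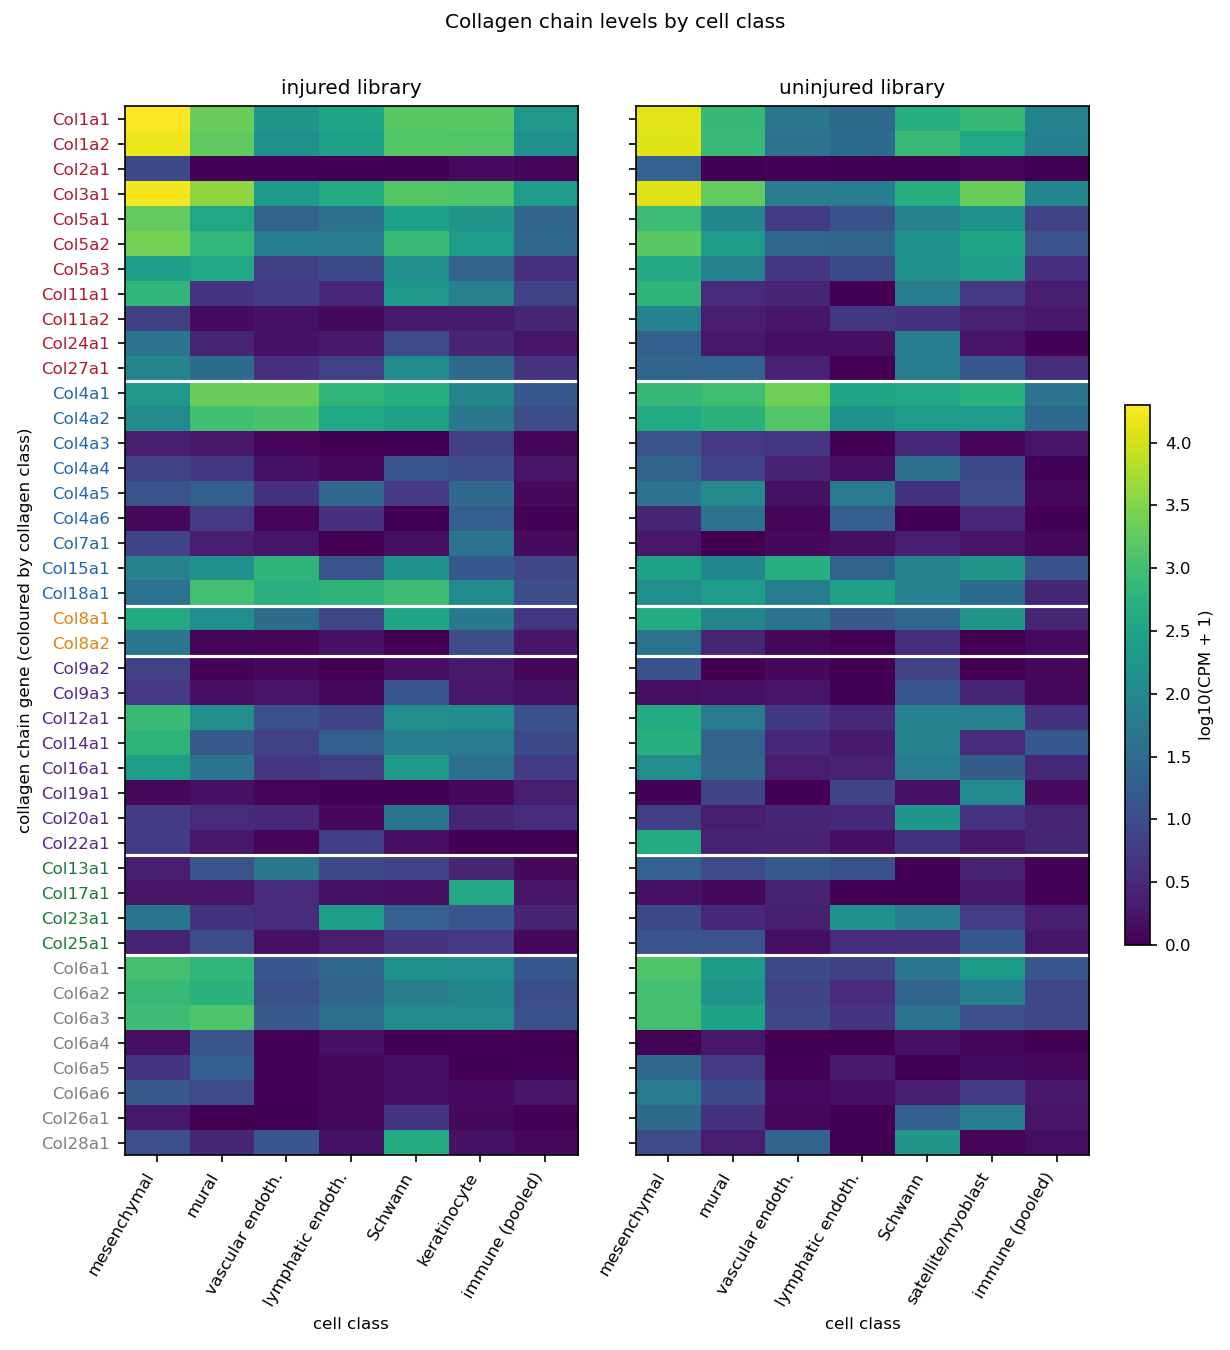
Level of each described chain (rows, grouped by family) in each cell class and library (columns), as log10 of CPM plus 1. Fibrillar rows are brightest in mesenchymal columns, Col4a1 and Col4a2 in vascular endothelial and mural columns, and Col17a1 in keratinocytes.

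In mesenchymal cells the basement membrane chains were lower in the injured library and most fibrillar chains differed by less than 2-fold. Of the 31 chains that passed the level filter, 3 were called higher and 12 lower, against 4.06% and 6.4% of all genes tested. With median-of-ratios scaling, which shifted all log2 values by 0.13, the split was 6 higher and 12 lower. By family, 2 of 11 fibrillar chains were called higher and 1 lower, 0 of 6 basement membrane chains higher and 6 lower, 0 of 2 network chains either way, and 1 of 4 FACIT chains lower. Of 2 transmembrane chains 1 was higher and 1 lower, and 3 of 6 type VI and other chains were lower. The median log2 difference was -0.31 over these chains and -0.04 over all genes tested. Of the 12 lower chains, 6 were below 10 CPM in the injured library and passed the filter through the uninjured level. Of the 3 higher ones 1, Col23a1, was below 10 CPM in the uninjured library and passed through the injured level.

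Different clusters made up the class in the 2 libraries, so the values above compare mixtures. In the injured library 1158 of the mesenchymal cells lay in a cluster led by Tnc, Cthrc1 and Postn, 768 in one led by Sfrp2, Igfbp4 and Cxcl14, and 239 in one led by Tnc and the cycling gene Top2a. These clusters held 7, 5 and 7 uninjured cells. In the uninjured library 686 cells lay in a cluster led by Gsn, Clec3b and Pi16, 367 in a tenocyte-like one led by Fmod, Thbs4 and Tnmd, and 196 in one led by Gsn, Inmt and Gdf10, with 95, 23 and 7 injured cells. Whether injury altered levels within a kind of cell or the kinds of cell present cannot be told apart for most of the class.

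**Figure D3:**
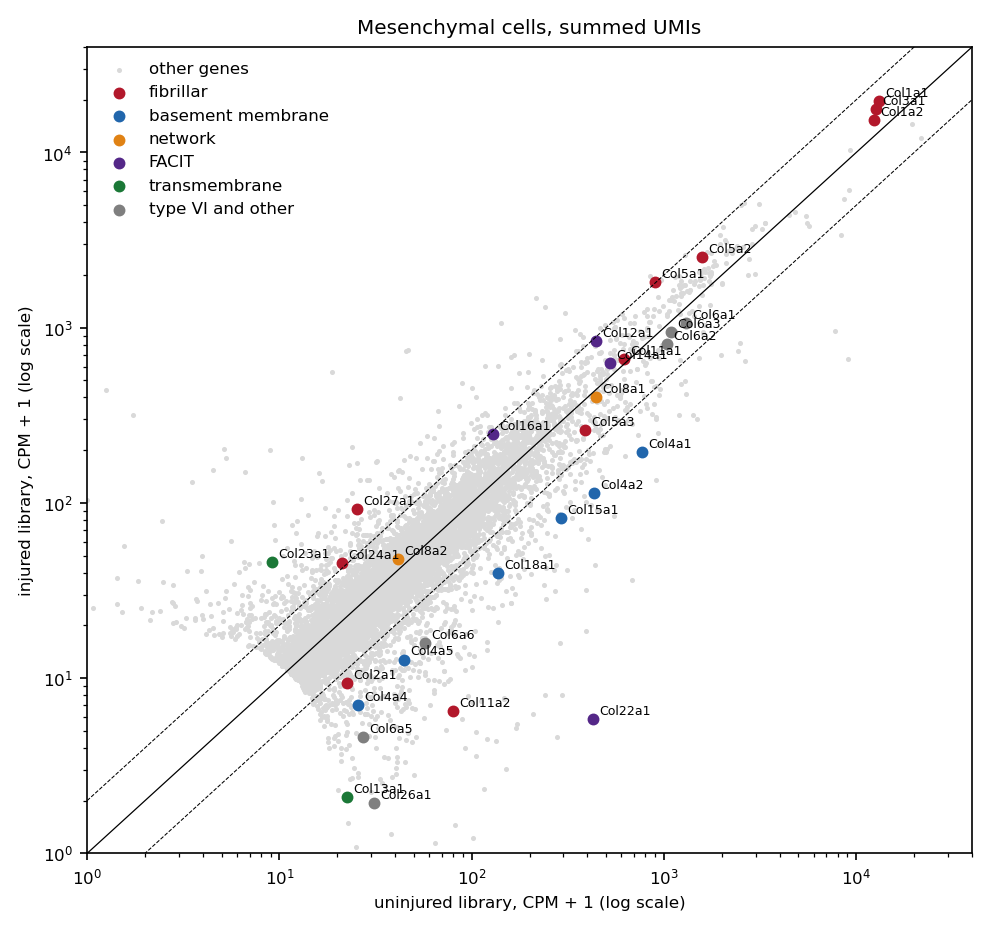
Level of each chain in mesenchymal cells of the uninjured library (x axis) against the injured library (y axis), as CPM plus 1 on log axes, coloured by family, with other genes in grey, a line of equal levels and dashed lines at 2-fold. Basement membrane chains such as Col4a1 (771 and 194 CPM) lie below the diagonal, and Col1a1 (13127 and 19639 CPM) lies slightly above it.

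The major fibril chains were high in both libraries. Col1a1 read 19639 CPM in injured and 13127 CPM in uninjured mesenchymal cells, a ratio of 1.496 (95% interval 1.491 to 1.501), and Col1a2, its partner in the type I heterotrimer, 15263 and 12372 CPM. Col3a1, the homotrimeric chain abundant in early scar, read 17665 and 12739 CPM (ratio 1.39). These 3 differences were under the 2-fold threshold. By cluster, Col3a1 ranged from 2134 CPM in the uninjured tenocyte-like cluster to 28483 CPM in the injured Sfrp2 cluster, with 14010 CPM in the injured Tnc Cthrc1 cluster and 17610 CPM in the uninjured Clec3b Pi16 cluster. Col1a1 spread less, from 10490 CPM in the uninjured Clec3b Pi16 cluster to 24521 CPM in the injured Sfrp2 cluster and 24763 CPM in the 23 injured tenocyte-like cells. The tenocyte-like cells therefore had the lowest ratio of Col3a1 to Col1a1, 0.124 in the uninjured library and 0.270 in the 23 injured cells, where the Clec3b Pi16 cluster had 1.68 and 1.88.

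The fibril-initiating type V chains were higher in the injured mixture for a pair of its 3 chains. Col5a1 read 1825 CPM against 902 CPM (ratio 2.02, interval 2.00 to 2.05) and was just past the threshold. Col5a2 read 2542 and 1584 CPM (1.61), and Col5a3 260 and 386 CPM. Col5a1 was at 178 CPM in the uninjured tenocyte-like cells and between 1118 and 2074 CPM in the uninjured Clec3b Pi16, uninjured Gsn Inmt, injured Clec3b Pi16 and the 3 mainly injured clusters. Its call was lost without the tenocyte-like cluster (log2 0.56), and in the 1 cluster with at least 50 cells of each library the log2 difference was -0.16.

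Type XI chains, which replace type V in cartilage and are also present in developing tendon, marked the tenocyte-like cells. Col11a1 differed little over the class (663 CPM injured, 616 CPM uninjured) but read 1923 CPM in uninjured tenocyte-like cells, 11.9 CPM in the uninjured Clec3b Pi16 cluster, 215 CPM in the injured Sfrp2 cluster and 938 CPM in the injured Tnc Cthrc1 cluster. The ratio of Col11a1 to Col5a1 was 10.8 in the uninjured tenocyte-like, 0.513 in the Tnc Cthrc1, 0.104 in the Sfrp2 and 0.00957 in the uninjured Clec3b Pi16 cells. Col11a2 read 248 CPM in uninjured and 123 CPM in injured tenocyte-like cells, and 8.07 CPM in the injured Tnc Cthrc1 cluster. Over the class it was 5.48 CPM injured and 79.0 CPM uninjured, 14.4-fold lower (interval 13.2 to 15.8), and the difference reversed to a log2 of 0.73 without the tenocyte-like cluster.

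The minor fibrillar chains were at lower levels. Col27a1, a chain of cartilage and other developing connective tissue, read 91.3 and 24.5 CPM, 3.73-fold higher in the injured mesenchymal cells (interval 3.45 to 4.04). It was at 116 CPM in the Tnc Cthrc1 and 89.7 CPM in the cycling cluster of the injured library, and its log2 difference within the shared Clec3b Pi16 cluster was -0.23. Col24a1 read 44.4 and 20.2 CPM, and Col2a1, the main cartilage chain, 8.36 and 21.5 CPM. Both were high in tenocyte-like cells, Col24a1 at 82.5 CPM in the 23 injured and 54.1 CPM in the uninjured cells, and Col2a1 at 42.3 and 68.0 CPM. The injured Tnc Cthrc1 cluster had 49.8 CPM of Col24a1 and 12.4 CPM of Col2a1.

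**Figure D4:**
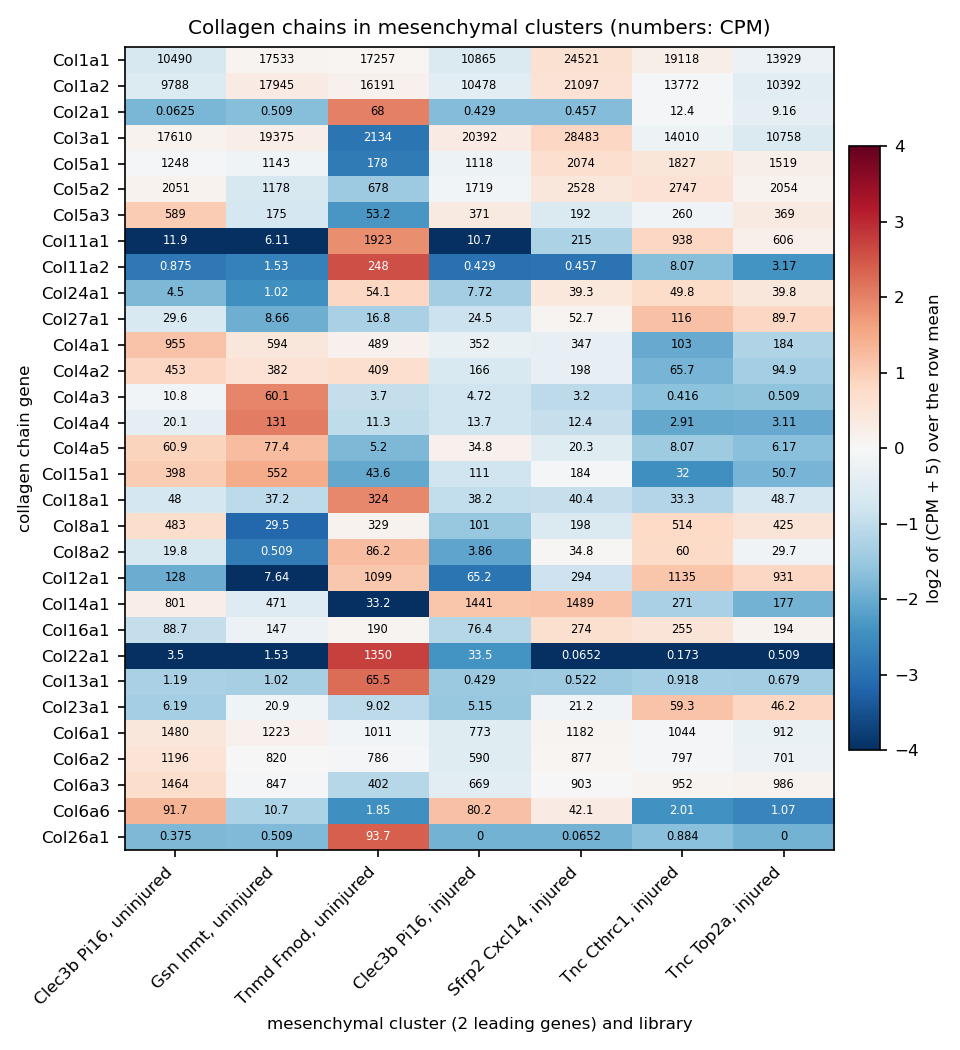
Chains (rows) in the mesenchymal clusters (columns, 1 library each), with CPM in each cell and colour for the log2 of CPM plus 5 over that of the row's mean CPM. The tenocyte-like column of the uninjured library is high for Col11a1, Col11a2, Col12a1, Col13a1, Col22a1 and Col26a1 and low for Col3a1 and Col5a1.

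The 6 basement membrane chains that passed the filter were called lower in the injured mesenchymal mixture, and 3 of them also within the 1 shared cluster described below. Col4a1 read 194 CPM in the injured and 771 CPM in the uninjured library, 3.97-fold lower (interval 3.89 to 4.04), and its trimer partner Col4a2 read 112 and 432 CPM (3.84-fold). The kidney and lung type IV chain Col4a4 was at 5.998 and 24.7 CPM, and Col4a5 at 11.8 and 43.2 CPM. Col15a1 read 80.5 and 292 CPM (3.62-fold lower), and Col18a1, whose C-terminal fragment is endostatin, 38.6 and 137 CPM (3.54-fold lower).

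The clusters divided these chains among themselves. Among uninjured cells, Col18a1 was at 324 CPM in the tenocyte-like cluster and at 48.0 CPM in the Clec3b Pi16 cluster, whereas Col15a1 was at 43.6 and 398 CPM. Col4a3 and Col4a4, the divergent pair 71 bases apart, were both highest in the Gsn Inmt cluster, at 60.1 and 131 CPM, with 10.8 and 20.1 CPM in the Clec3b Pi16 cluster and 3.70 and 11.3 CPM in tenocyte-like cells. In the injured library Col4a1 was lowest in the Tnc Cthrc1 cluster at 103 CPM, against 347 CPM in the Sfrp2 cluster and 352 CPM in the Clec3b Pi16 cluster. Without the tenocyte-like cluster the Col18a1 difference was a log2 of -0.37 and no longer called.

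The Clec3b Pi16 cluster allowed a comparison within 1 kind of mesenchymal cell, 95 injured and 686 uninjured, at median depths of 20947 and 21764.5 UMIs. Of 25 chains that passed the filter there, 1 was called higher and 8 lower, against 2.03% and 2.25% of all genes tested. Of the 8 lower chains 2, Col8a2 and Col6a5, were below 10 CPM in the injured cells and passed through the uninjured level. Col4a1 read 352 CPM in the injured and 955 CPM in the uninjured cells (2.71-fold lower, interval 2.53 to 2.92), Col4a2 166 and 453 CPM, and Col15a1 111 and 398 CPM (3.59-fold). The network chain Col8a1 was at 101 and 483 CPM (4.76-fold lower) and its partner Col8a2 at 3.86 and 19.8 CPM. Of 5 type VI and other chains 3 were called lower, with Col6a2 at 590 and 1196 CPM, Col6a3 at 669 and 1464 CPM and Col6a5 at 4.29 and 43.5 CPM. Col6a1 (773 and 1480 CPM) and Col6a6 (80.2 and 91.7 CPM) were not called. The other 3 of the 6 basement membrane chains were not called either, with log2 differences of -0.42 for Col4a4, -0.73 for Col4a5 and -0.30 for Col18a1.

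Fibrillar chains in this shared cluster were close to each other in the 2 libraries. Col1a1 read 10865 and 10490 CPM, Col3a1 20392 and 17610 CPM, and Col5a1 1118 and 1248 CPM. The 1 chain called higher, Col22a1, read 33.5 CPM in the injured and 3.50 CPM in the uninjured cells, although it was 89.0-fold lower over the whole class. It was below 10 CPM in the uninjured cells and passed the filter through the injured level.

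FACIT chains followed the clusters closely. Col22a1, found at muscle to tendon junctions, read 4.81 CPM in injured and 428 CPM in uninjured mesenchymal cells (89.0-fold lower, interval 81.5 to 97.3). It was at 1350 CPM in the uninjured and 857 CPM in the 23 injured tenocyte-like cells, at 0.173 CPM in the Tnc Cthrc1 cluster and at 0.0652 CPM in the Sfrp2 cluster. The class difference shrank to a log2 of -0.58 without the tenocyte-like cluster. Col22a1 thus read high in tenocyte-like cells of both libraries, and those cells were 367 in 1 library and 23 in the other.

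The fibril-surface chains Col12a1 and Col14a1 were high in different clusters. Col12a1 read 1099 CPM in uninjured tenocyte-like cells, 1135 CPM in the injured Tnc Cthrc1 cluster, 128 CPM in the uninjured Clec3b Pi16 cluster and 294 CPM in the Sfrp2 cluster. Col14a1 read 33.2, 271, 801 and 1489 CPM in the same order. The ratio of Col12a1 to Col14a1 was 33.1, 4.19, 0.160 and 0.197. Over the class the differences stayed under the threshold, with Col12a1 at 841 and 441 CPM (ratio 1.91), Col14a1 at 624 and 522 CPM, and Col16a1 at 246 and 127 CPM (1.93). Of the cartilage FACIT chains, Col9a2 was at 5.95 CPM injured and 11.2 CPM uninjured over the class and at 34.8 CPM in the uninjured tenocyte-like cells.

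Network, transmembrane and type VI chains completed the mesenchymal profile. Col8a1 read 401 and 440 CPM and Col8a2 47.0 and 40.1 CPM over the class. The 3 core type VI chains differed by less than 2-fold, with Col6a1 at 1058 and 1308 CPM, Col6a2 at 801 and 1040 CPM and Col6a3 at 938 and 1092 CPM. The alternative type VI chains Col6a5 (3.61 and 26.2 CPM) and Col6a6 (14.8 and 56.0 CPM) were called lower, the latter without a call in the shared Clec3b Pi16 cluster (log2 -0.18), and both were highest in the Clec3b Pi16 cluster, at 43.5 and 91.7 CPM among uninjured cells. The membrane-anchored chains differed in direction. Col23a1 read 45.0 CPM injured and 8.17 CPM uninjured (5.51-fold higher, interval 4.82 to 6.33), with 59.3 CPM in the Tnc Cthrc1 cluster. Col13a1, a chain of the neuromuscular junction, read 1.09 and 21.6 CPM (19.8-fold lower) and was at 65.5 CPM in uninjured tenocyte-like cells. Col26a1 was likewise at 93.7 CPM there and at 0.926 and 29.9 CPM over the class (32.2-fold lower). Without the tenocyte-like cluster the log2 difference of Col26a1 was 0.016 and that of Col13a1 -0.14. The Col23a1 difference within the shared Clec3b Pi16 cluster was a log2 of -0.14.

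In vascular endothelium type IV levels were alike in the 2 libraries and Col18a1 stood out. Of 14 chains that passed the filter, 7 were called higher in the injured library and 0 lower, against 3.77% and 4.23% of all genes tested. Of the 7 higher chains 1 was below 10 CPM in the uninjured library and passed the filter through the injured level. Col4a1 read 2116 CPM injured and 2215 CPM uninjured, Col4a2 1212 and 1386 CPM, and Col15a1 621 and 507 CPM. Col18a1 read 537 and 66.3 CPM, 8.10-fold higher in the injured library (interval 7.74 to 8.48). It was higher in 5 of 5 endothelial clusters, and more than 2-fold higher in 4 of them.

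Cluster makeup differed here too, with 1156 of the uninjured cells in a capillary cluster led by Timp4, Gpihbp1 and Cd36 that held 122 injured cells, and 465 injured cells in a cluster led by Plvap and Aplnr that held 44 uninjured cells. Col18a1 read 1121 CPM injured and 129 CPM uninjured in the arterial-like cluster led by Stmn2 and Sema3g, 416 and 113 CPM in the venous-like cluster led by Selp and Vwf, 597 and 80.5 CPM in cycling cells, and 69.3 and 41.5 CPM in the capillary cluster. The capillary cluster was the 1 with a difference under 2-fold. Counts of chains past the filter were read cluster by cluster. In the capillary cluster 4 of 12 chains were called higher and 0 lower (all genes 0.718% and 0.586%), the 4 being fibrillar, and in the Selp Vwf cluster 6 of 10 higher and 0 lower (2.56% and 3.03%). In the Plvap Aplnr cluster 5 of 11 were higher and 0 lower (3.75% and 2.81%), in the cycling cluster 8 of 17 higher and 1 lower (3.77% and 4.94%), and in the Stmn2 Sema3g cluster 7 of 14 higher and 0 lower (4.29% and 3.18%). In each of these clusters 3 or 4 of the higher chains were fibrillar. Chains that were below 10 CPM in the lower library, and so passed the filter through the other one, made up 4 of the 8 higher and the 1 lower in the cycling cluster, 3 of the 7 in the Stmn2 Sema3g cluster and 1 of the higher chains in each of the other three clusters.

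Among the basement membrane and transmembrane chains, Col4a1 ran in both directions across clusters, at 1181 and 462 CPM in the Selp Vwf cluster and 2033 and 2605 CPM in the capillary cluster. Col13a1 read 50.5 and 15.7 CPM over the class, with 75.4 CPM in the injured Plvap Aplnr cells, 54.7 and 2.43 CPM in cycling cells, and 14.8 and 33.7 CPM in the Selp Vwf cluster. In the clusters with at least 100 cells of each library its log2 difference was -0.24.

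The other 5 chains called higher in vascular endothelium were fibrillar, and 4 of them were close to or below the immune level in both libraries. Col1a1 read 183 CPM injured and 51.0 CPM uninjured in endothelium and 197 and 81.5 CPM in immune cells, and Col3a1 213 and 62.2 CPM against 234 and 98.2 CPM. Col1a2 read 144 and 43.1 CPM against 140 and 70.5 CPM, and Col5a1 22.9 and 4.77 CPM against 24.5 and 6.05 CPM. Col1a1, Col3a1 and Col5a1 were below the immune level in both libraries, so subtracting it left nothing on either side and could not show a difference. For Col1a2 the subtraction left a log2 difference of 0.78. The immune level is also an uneven yardstick, because a fixed amount of free RNA reads higher in CPM in shallower cells. Median depths were 11215 UMIs in immune and 24584 in vascular endothelial cells of the injured library, and 15092.5 and 14197 in the uninjured library. In the injured library it may therefore overstate the endothelial background, which was not tested. No change in endothelial cells is read from these 4. Single clusters were above the immune level, with Col1a1 at 141 CPM in the uninjured Stmn2 Sema3g cluster and 273 CPM in the injured cycling cluster. Col5a2 was the exception at 71.9 and 27.6 CPM against 27.7 and 11.4 CPM in immune cells, with 368 and 108 CPM in the Stmn2 Sema3g cluster. The network chain Col8a1 was concentrated in the same cluster, at 280 and 329 CPM, against 32.3 and 44.3 CPM over the class.

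In mural cells pooled over clusters, most fibrillar chains and the tested type VI chains were called higher in the injured library. Fewer fibrillar chains were called within single clusters, as given below. Of 23 chains that passed the filter, 13 were called higher and 2 lower, against 5.92% and 5.96% of all genes tested. These were 6 of 7 fibrillar chains, 4 of 4 type VI chains, 1 of 3 FACIT chains and 2 of 6 basement membrane chains, with the 2 lower ones also basement membrane chains. Of the higher chains 1 was below 10 CPM in the uninjured library, and of the lower ones 1 in the injured library. Col6a3 read 1307 CPM injured and 315 CPM uninjured (ratio 4.15, interval 3.899 to 4.42), Col5a3 378 and 76.7 CPM (4.93), and Col12a1 132 and 55.4 CPM (2.39). Col18a1 was at 1048 and 238 CPM (4.41, interval 4.10 to 4.74).

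Type IV chains in mural cells differed in direction. Col4a1 read 2131 and 969 CPM (2.20-fold higher) and Col4a2 993 and 570 CPM (1.74-fold). The X-linked pair was lower, with Col4a5 at 19.2 and 105 CPM (5.48-fold) and Col4a6, a smooth muscle basement membrane chain, at 4.11 and 39.4 CPM (9.59-fold). With each library clustered alone neither was called (log2 -0.75 and -0.94). The Col4a1 call was lost at a mitochondrial limit of 20% (log2 0.39), when each library was clustered alone (0.16), with each cell given the same weight (0.91), among Xist cells (0.94), and when an unnamed cluster with both pericyte and capillary genes was counted as mural (0.23). That cluster had 2.08 times the median depth, and whether its droplets hold 2 cells was not tested.

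The mural clusters differed in number between libraries: a cluster led by Rgs5 and Acta2 held 398 injured and 77 uninjured cells, a smooth muscle-like one led by Myh11 held 51 and 106, and one led by Rgs5 and Abcc9, held 5 and 36. The class values above therefore compare mixtures. In the first, 10 of 22 chains were called higher and 2 lower (all genes 6.22% and 6.33%), and in the second 10 of 21 higher and 0 lower (2.71% and 3.29%). Fibrillar chains called higher were 4 of 7 in the first and 2 of 7 in the second. For type VI and other chains they were 1 of 5 and 3 of 3. Col1a2 and Col3a1 were called in neither cluster. The 2 lower chains of the first were below 10 CPM in its injured cells, and 1 higher chain of the second in its uninjured cells. These passed the filter through the other library. Col18a1 was higher in both, at 1014 and 164 CPM in the Rgs5 Acta2 cells and 1337 and 310 CPM in the Myh11 cells, as was Col6a3 at 1398 and 400 CPM and at 615 and 225 CPM. Col4a1 was at 2194 and 727 CPM and at 1655 and 791 CPM. The major fibrillar chains differed between clusters, with Col1a1 at 2352 and 1012 CPM in the Rgs5 Acta2 cells and 694 and 673 CPM in the Myh11 cells, and Col3a1 at 4258 and 3081 CPM and at 1018 and 1279 CPM. Col4a5 was lower in the injured cells of both, at 7.34 and 37.4 CPM and at 112 and 156 CPM.

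Col18a1 was called higher in the injured library in vascular endothelial, mural, Schwann and lymphatic endothelial cells and lower in mesenchymal cells. Its level in immune cells was 9.38 CPM injured and 1.76 CPM uninjured. To compare shares of cells across depths, each cell was thinned to 2000 UMIs. The share with a Col18a1 UMI was then 49.2% injured and 7.56% uninjured in vascular endothelium (87.2% and 30.3% before thinning, at median depths of 24584 and 14197 UMIs). It was 79.8% and 29.4% in mural, 66.7% and 37.5% in lymphatic endothelial, and 47.5% and 12.5% in Schwann cells. In mesenchymal cells the share was 6.44% and 16.3%, and in immune cells 1.49% and 0.722%.

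**Figure D5:**
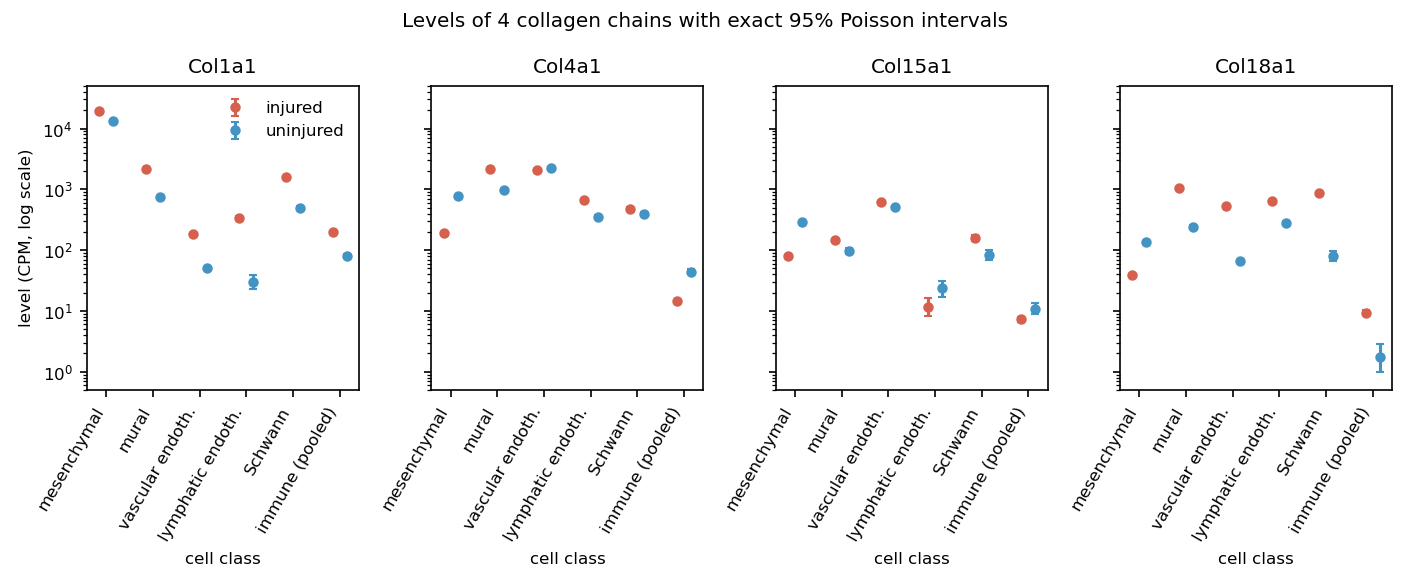
Level of 4 chains (CPM, log axis) in each cell class, with 1 point per library and 95% Poisson intervals for counting error. For Col18a1 the injured point is above the uninjured one in vascular endothelium (537 and 66.3 CPM) and below it in mesenchymal cells (38.6 and 137 CPM).

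Lymphatic endothelium, 84 cells in each library, differed from vascular endothelium in its transmembrane chain. Of 16 chains that passed the filter 10 were called higher and 2 lower, against 10.2% and 9.75% of all genes tested, with 3 of the higher chains below 10 CPM in the uninjured and 1 of the lower in the injured library. Col23a1 read 255 CPM injured and 163 CPM uninjured, the highest of any named class in both libraries. Col18a1 was at 632 and 281 CPM (2.25-fold), Col4a1 at 657 and 353 CPM and Col4a2 at 360 and 157 CPM (2.29-fold), while Col4a5 (25.1 and 58.0 CPM) and Col4a6 (3.10 and 18.8 CPM) were called lower. The higher ones also held 5 fibrillar and 3 type VI chains, with Col1a1 at 338 and 30.01 CPM. The immune level of Col1a1 was 197 and 81.5 CPM, so the uninjured value was under background and the injured one above it. Calls in this class were not recomputed with other processing or with the immune level subtracted.

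Schwann cells, which lay in 1 cluster with Mbp and Pmp22 among its leading genes, held both higher and lower chains. Of 26 chains that passed the filter 12 were called higher and 5 lower, against 10.7% and 8.71% of all genes tested, and 2 of the 5 lower chains, Col24a1 and Col26a1, were below 10 CPM in the injured library. The class held 100 and 170 cells at median depths of 14589.5 and 7348.5 UMIs. Col18a1 read 870 CPM injured and 80.8 CPM uninjured (10.8-fold, interval 8.97 to 13.04), and Col8a1 339 and 26.1 CPM (13.01-fold, interval 9.45 to 18.4). Col28a1, a chain of peripheral nerve, read 431 and 176 CPM (2.45-fold higher; log2 0.43 and no call when each library was clustered alone) and was at 13.9 and 22.6 CPM in the next class, vascular endothelium.

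The chains lower in injured Schwann cells were Col20a1, Col23a1, Col24a1, Col26a1 and Col4a4. Col20a1 read 46.5 CPM injured and 178 CPM uninjured (3.82-fold lower), Col24a1 8.79 and 68.4 CPM (7.78-fold), and Col23a1 21.7 and 66.4 CPM. With each cell given the same weight the calls of Col20a1 (log2 -0.76), Col23a1 (-0.37), Col26a1 (-0.94) and Col4a4 (-0.63) were lost. Col26a1 was at 3.62 and 20.8 CPM, and that difference reversed to a log2 of 0.31 when each library was clustered alone. Col4a4 was at 12.4 and 35.8 CPM, with a log2 of -0.46 in libraries clustered alone. Col4a1, the basement membrane chain, was at 477 and 396 CPM. Fibrillar chains were well above the immune level in these cells, with Col1a1 at 1595 and 488 CPM, Col3a1 at 1452 and 501 CPM and Col5a2 at 801 and 159 CPM (5.04-fold). Col9a3, a cartilage FACIT chain, had its highest level here in both libraries, 12.4 and 12.4 CPM.

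An unnamed cluster led by Apod, Gpc3 and Smoc2, with 80 injured and 79 uninjured cells, had 31 chains past the filter, 9 called higher and 6 lower, against 9.64% and 5.07% of all genes tested. Of the higher chains 3 were below 10 CPM in the uninjured cells. Col23a1 read 340 CPM injured and 14.95 CPM uninjured (22.7-fold), Col12a1 246 and 33.4 CPM, Col14a1 170 and 23.0 CPM, and Col11a1 414 and 124 CPM. Col7a1, the anchoring fibril chain, was at 22.4 CPM injured with no UMI in the uninjured cells (at least 6.50-fold higher against a floor of 3 counts per library), and Col19a1 at 27.2 CPM with none (at least 7.88-fold). Lower chains included Col6a5 at 59.2 and 319 CPM, Col4a5 at 21.8 and 80.5 CPM, Col15a1 at 377 and 856 CPM and Col8a1 at 300 and 635 CPM. The pair Col4a3 (16.3 and 40.3 CPM) and Col4a4 (48.3 and 129 CPM) was lower together.

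Muscle and skin cells were compared with nothing, because each was nearly or wholly absent from 1 library. The 274 uninjured satellite cells or myoblasts had 108 CPM of Col19a1 (interval 99.2 to 117), a FACIT chain known from developing muscle, against 6.81 CPM in the next class. Col26a1 was at 61.9 CPM, Col25a1 at 14.1 CPM, Col15a1 at 171 CPM and Col5a3 at 226 CPM in these cells. Col3a1 was at 2140 CPM and Col1a1 at 766 CPM, a ratio of 2.79 where the immune cells of the library had 1.21. Col6a1 at 221 CPM was accompanied by 10.3 CPM of Col6a3.

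The 306 keratinocytes of the injured library carried the chains of the skin's hemidesmosomes and anchoring fibrils. Col17a1, the hemidesmosome collagen of basal keratinocytes, read 395 CPM (interval 384 to 407) and Col7a1 43.0 CPM (39.3 to 47.0). Col4a5 was at 28.8 CPM, Col4a6 at 18.5 CPM, Col4a3 at 5.43 CPM and Col18a1 at 113 CPM. Col1a1 at 1611 CPM was above the 197 CPM of immune cells, and whether it came from these cells was not tested. Over all cells Col17a1 read 19.9 CPM injured and 1.03 CPM uninjured (19.4-fold), with keratinocytes present in the injured library alone.

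Ratios between partner chains of 1 trimer were compared across classes. Col4a2 to Col4a1 was 0.409 in uninjured satellite cells, 0.838 in uninjured tenocyte-like cells, 0.579 and 0.560 in mesenchymal, 0.573 and 0.626 in vascular endothelial, 0.466 and 0.588 in mural and 0.593 and 0.587 in Schwann cells. Col1a2 to Col1a1 was 0.777 injured and 0.942 uninjured in mesenchymal, 0.824 and 1.08 in mural, 0.914 and 1.71 in Schwann and 0.476 in uninjured satellite cells. It was lower in the injured library in the first 3 of these classes. Within the mesenchymal clusters it was not, at 0.964 injured and 0.933 uninjured in the Clec3b Pi16 cluster and 0.977 and 0.938 in the tenocyte-like cluster. Col6a3 to Col6a1 ranged more widely, from 0.0468 in uninjured satellite cells to 0.887 and 0.835 in mesenchymal, 1.96 and 1.41 in mural and 2.97 and 2.76 in Myh11 smooth muscle-like cells. A ratio also holds any difference in capture between its 2 genes, so it is read only against the same ratio in another class.

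The genes that fold, cut, cross-link, bind and degrade collagen were read from a list of 47. In mesenchymal cells 41 passed the filter, 6 were called higher in the injured library and 5 lower, where 4.06% and 6.4% of all genes tested were. Of folding genes 3 of 18 were higher, namely the prolyl hydroxylase subunit P4ha3 (113 and 22.8 CPM, 4.97-fold), the lysyl hydroxylase Plod2 (423 and 208 CPM) and the chaperone Fkbp10 (210 and 101 CPM). The collagen chaperone Serpinh1 was at 1961 and 1192 CPM, under 2-fold. Among 5 cross-linking genes Lox, a lysyl oxidase, was higher at 856 and 286 CPM (2.99-fold).

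The remaining higher genes were the procollagen protease Tll1 (19.99 and 5.94 CPM) and the collagenase Mmp13 (22.5 and 5.03 CPM). Lower were the hydroxylase P3h2 (11.5 and 36.0 CPM), the galactosyltransferase Colgalt2 (7.16 and 41.6 CPM), the procollagen protease enhancer Pcolce2 (43.3 and 272 CPM, 6.29-fold), and the collagen-binding integrin subunits Itga2 (6.81 and 22.5 CPM) and Itga10 (4.50 and 21.4 CPM). Of the called genes, Tll1 and Mmp13 were below 10 CPM in the uninjured library, and Colgalt2, Itga2 and Itga10 in the injured library. These passed the filter through the other library. Within the shared Clec3b Pi16 cluster 38 of these genes passed the filter, with 1 higher, P4ha3 (72.1 and 27.6 CPM), and 1 lower, Plod1 (53.6 and 123 CPM). Lox was at 228 and 169 CPM there, and the differences of Plod2, Fkbp10 and Itga2 reversed, at log2 values of -0.52, -0.13 and 0.59.

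Across chains with at least 1000 UMIs, the level in immune cells had a median of 2.15% of that in the other cells of the injured library (28 chains, 1.49% to 8.87%) and 1.87% in the uninjured library (29 chains, 0.560% to 20.2%). Col1a1 was detected in 34.6% of injured and 11.4% of uninjured immune cells thinned to 2000 UMIs, and in 20.02% and 8.00% of vascular endothelial cells. Shares for Col1a1 in endothelium were thus below those in immune cells in each library. Thinning does not equalise the fraction of free RNA between cells of unlike depth (injured medians 24584 UMIs in vascular endothelium, 11215 in immune cells). The order of these shares therefore cannot show whether endothelial Col1a1 was background.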

How the data were processed

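The deposited files hold counts: whole UMI counts per gene and cell barcode that the authors made with Cell Ranger 5.0.1 on mm10, per the submitters' processing notes. Annotation release and cell calling: not given in the sources used here. Per the labels' protocols, tissue was digested with enzymes and run on a droplet kit that reads 3′ ends, so a count does not scale with gene length.

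Cells with at least 500 genes, at most 10% mitochondrial UMIs and a Scrublet score of at most 0.2 were kept (215 injured and 60 uninjured barcodes were removed as doublets, since the automatic score limit marked very few). The libraries held 253050820 and 101685524 UMIs in 10691 and 6850 barcodes. Both were clustered together (scanpy 1.11.5, 2000 variable genes, 30 components, 15 neighbours, Leiden resolution 0.8, 33 clusters; igraph 0.11.9, scikit-learn 1.9.0). A cluster was named where at least 3 markers of 1 of 29 lists were each in at least 10% of cells; the rules for rival lists and for shallow clusters were set after the data were seen. Names may differ from the study's.

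Raw counts were summed per class and library. With 1 library per group no test was possible. Folds used log2(CPM + 5), a mean of at least 10 CPM and a 2-fold limit over all genes; 95% intervals came from scipy 1.17.1 (exact Poisson, Clopper-Pearson, conditional binomial for ratios). The calls were tested on counts simulated at whole-library depth, with counting error alone and changes larger than 2-fold. That simulation did not cover small classes, mixtures of clusters or spread between animals. The members, the gene lists and the questions were chosen with earlier results of these data known. Every member is accounted for, and those reaching 10 CPM in a class of at least 50 cells are described by name. Gene positions are from GENCODE M21 on GRCm38, and promoter windows from RefSeq (GRCm38.p6). Alternatives covered scaling, pseudocount, level and cell filters, doublets, weighting of cells, clustering and immune background.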

Additional observations from a re-analysis of the deposited data

Results flagged for a closer look

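For 5 chains the injured-to-uninjured difference was past 2-fold in opposite directions in different classes. Each class is 1 library per group, so none of these differences between classes was tested against replicates. Col4a1 had a log2 difference of 1.13 in mural and -1.96 in mesenchymal cells, and the mural call was lost under the 5 alternatives given above. Col6a5 had 1.31 in mural and -1.86 in mesenchymal cells. The mural call was lost among Xist cells (0.91), and at a mitochondrial limit of 20% (1.83) and with the pericyte and capillary cluster counted as mural (1.30) its mean level was under 10 CPM. Neither mural cluster with at least 50 cells of each library had a called difference. Col13a1 had 1.42 in vascular endothelial and -2.13 in mesenchymal cells, at -0.24 in endothelial clusters with at least 100 cells of each library and -0.14 in mesenchymal cells without the tenocyte-like cluster. Col18a1 had 2.93 in vascular endothelial, 2.12 in mural and 3.35 in Schwann cells, and -1.70 in mesenchymal cells, the last at -0.37 without the tenocyte-like cluster. Col23a1 had 1.93 in mesenchymal and -1.42 in Schwann cells, at -0.14 in the shared mesenchymal cluster and -0.37 in Schwann cells with each cell given the same weight.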

How the results depend on the processing

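Each group was a single library, so no value carries animal-to-animal spread. Of 1063 recomputed values of single called genes, 986 kept their call and 11 reversed, and 159 of 174 recomputed counts stayed within 1.5 times the reported one. The 986 include values that could not lose their call, those with a pseudocount of 1 CPM and those without a filter on level. Over all cells, the chains called higher went from 10 to 0 with each cell given the same weight, and those called lower from 4 to 7 both with a pseudocount of 1 CPM and without a filter on level. In mesenchymal cells the number called higher went from 3 to 6 with median-of-ratios scaling (a shift of 0.13 on the log2 scale), 5 with equal cell weight, 1 in the shared cluster and 7 without the tenocyte-like cluster. In vascular endothelium it went from 7 to 3 after subtracting the immune level, and the number called lower from 0 to 1 in clusters with at least 100 cells of each library. That subtraction set levels below the immune one to 0, so chains below it in both libraries could not keep a call. In mural cells the number called lower went from 2 to 1 when each library was clustered alone and when the pericyte and capillary cluster was counted as mural. In Schwann cells it went from 5 to 3 with each library clustered alone and to 1 with equal cell weight. Processing and receptor genes went from 6 to 1 higher and from 5 to 1 lower in the shared cluster.

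Reversed values in the shared cluster were Col5a1 (-0.16), Col27a1 (-0.23), Col23a1 (-0.14), Col22a1 (2.18), Plod2 (-0.52), Fkbp10 (-0.13) and Itga2 (0.59), in log2 units. Col26a1 (0.016) and Col11a2 (0.73) reversed in mesenchymal cells without the tenocyte-like cluster, Col13a1 (-0.24) in endothelial clusters with at least 100 cells of each library, and Col26a1 (0.31) in Schwann cells with each library clustered alone. The alternatives with the shared cluster, without the tenocyte-like cluster, in clusters of at least 100 cells, with the immune level subtracted and with the pericyte and capillary cluster were chosen after seeing the data. The causes were not tested. No paired analysis was possible because each group is 1 library. Mesenchymal clusters with at least 100 cells of each library (0 such clusters) and Schwann cells with Y-linked UMIs (34 and 50 cells) were not run. Lymphatic endothelial cells were left out of all these alternatives.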
